A study of Mus musculus with 21 samples.

Results

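The 40 genes described here encode the chaperones, sensors and transcription factors of the heat shock response and the unfolded protein response, and were listed by name for their known roles in these pathways, with earlier results of these data known. All 40 were found among the 24206 gene names used from the table of RPKM values (reads scaled to transcript length and library size). A mean of at least 1 RPKM within an experiment was required for testing, which 38 members passed in the stroke experiment and 38 in the beta-catenin experiment. Ern1 and Sesn2 were too low in its 16 libraries, and Sdf2l1 and Trib3 in the 5 of the beta-catenin experiment. In the stroke libraries Ern1 ranged from 0.0186 to 0.361 RPKM and Sesn2 from 0.0 to 0.0796 RPKM.

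RNA was taken from brain endothelial cells of adult C57BL/6 mice aged 12 to 20 weeks, sorted after enzymatic digestion as live CD31-positive cells without CD45 or PDGFRb. In the stroke experiment Cko mice (Gpr124 flox/-; ROSA-CreER+) were set against WT mice that kept 1 functional allele (Gpr124 flox/+; ROSA-CreER+), so all 4 groups carried a floxed allele and the inducible Cre recombinase. Cre driven from the ROSA locus is not restricted to endothelium. The middle cerebral artery was occluded for 1 h, and after 1 d of reperfusion the stroke hemisphere (ST) and the non-stroke hemisphere (NS) were taken, giving Cko-ST, Cko-NS, WT-ST and WT-NS with 4 libraries each. The non-stroke hemisphere came from operated mice, and no unoperated brain was sampled for this experiment. In the second experiment, without stroke, 3 Bcat libraries (Ctnnb1 lox(ex3)/+; Cdh5-CreER+, in which endothelial Cre removes the exon that lets beta-catenin be degraded) were set against 2 WT libraries (Ctnnb1 +/+; Cdh5-CreER+). These 2 experiments used different amplification kits, and no value was compared between them. By label all WT-ST, WT-NS and Cko-NS libraries were female. Cko-ST libraries 1 and 2 were female by label and libraries 3 and 4 male, and all libraries of the second experiment were male. Nothing in the labels ties a library to 1 animal of its own, so every p-value below measures the spread between these libraries.

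Cells respond to unfolded proteins in each compartment with a separate programme. In the cytosol, heat shock factor 1 induces HSP70, HSP90, small heat shock proteins and their co-chaperones. In the endoplasmic reticulum (ER), the sensors PERK, IRE1 and ATF6 act through ATF4, spliced XBP1 and cleaved ATF6, and raise ER chaperones, disulfide isomerases and degradation factors. ATF4 is also raised by amino acid shortage and other stresses through phosphorylation of eIF2alpha, and then drives amino acid synthesis and transport. Both programmes are well known in ischaemic brain tissue.

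Promoters of 6 members are shown because they carry sequence elements known from these pathways, and because their genes span the responses reported below. The sequences are from RefSeq on GRCm38.p6 and run 5′ to 3′ on the gene's own strand, from 250 bases before the transcription start site to 50 bases into the first exon. Capitals mark matched elements, on either strand. Hspa5, Canx and Calr hold the ER stress element, searched as CCAAT and CCACG with 9 bases of any kind between them; Hspe1 and Hsph1 hold the heat shock element, searched as alternating GAA and TTC blocks, 3 in all, with 2 bases of any kind between neighbours; and Herpud1 holds the amino acid response element, searched as TTGCATCA or TTGCACCA.
Hspa5, chr2:34771840-34772139, plus strand: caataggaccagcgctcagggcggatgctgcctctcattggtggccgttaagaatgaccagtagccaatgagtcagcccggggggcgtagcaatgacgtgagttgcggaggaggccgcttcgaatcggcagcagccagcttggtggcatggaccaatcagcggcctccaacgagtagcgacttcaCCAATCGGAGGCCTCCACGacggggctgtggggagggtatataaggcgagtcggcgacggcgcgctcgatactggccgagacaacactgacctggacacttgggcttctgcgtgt
Canx, chr11:50325624-50325923, minus strand: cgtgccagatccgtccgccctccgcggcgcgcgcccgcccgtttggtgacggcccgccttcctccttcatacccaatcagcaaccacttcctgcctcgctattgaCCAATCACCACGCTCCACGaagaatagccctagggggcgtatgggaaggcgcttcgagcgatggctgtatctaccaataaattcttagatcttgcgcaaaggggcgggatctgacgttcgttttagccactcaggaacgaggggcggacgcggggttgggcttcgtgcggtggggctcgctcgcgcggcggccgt
Calr, chr8:84846882-84847181, minus strand: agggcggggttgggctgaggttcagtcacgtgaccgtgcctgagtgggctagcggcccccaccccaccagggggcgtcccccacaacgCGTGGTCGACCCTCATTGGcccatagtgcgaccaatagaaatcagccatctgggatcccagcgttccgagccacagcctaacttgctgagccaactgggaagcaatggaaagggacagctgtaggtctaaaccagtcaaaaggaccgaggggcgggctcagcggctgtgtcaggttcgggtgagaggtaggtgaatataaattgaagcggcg
Hspe1, chr1:55087898-55088197, plus strand: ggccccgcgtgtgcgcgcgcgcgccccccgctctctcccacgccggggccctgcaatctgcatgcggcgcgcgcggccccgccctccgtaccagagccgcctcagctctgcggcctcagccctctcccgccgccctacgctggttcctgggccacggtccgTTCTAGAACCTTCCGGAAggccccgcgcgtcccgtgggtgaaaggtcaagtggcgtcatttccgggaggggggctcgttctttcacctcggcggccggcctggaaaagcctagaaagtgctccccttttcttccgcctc
Hsph1, chr5:149636266-149636565, minus strand: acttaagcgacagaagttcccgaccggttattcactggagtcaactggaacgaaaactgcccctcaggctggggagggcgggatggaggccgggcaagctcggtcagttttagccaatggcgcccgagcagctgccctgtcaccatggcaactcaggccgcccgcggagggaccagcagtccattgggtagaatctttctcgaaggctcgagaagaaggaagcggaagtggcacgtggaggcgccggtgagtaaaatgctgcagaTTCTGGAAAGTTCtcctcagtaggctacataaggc
Herpud1, chr8:94386179-94386478, plus strand: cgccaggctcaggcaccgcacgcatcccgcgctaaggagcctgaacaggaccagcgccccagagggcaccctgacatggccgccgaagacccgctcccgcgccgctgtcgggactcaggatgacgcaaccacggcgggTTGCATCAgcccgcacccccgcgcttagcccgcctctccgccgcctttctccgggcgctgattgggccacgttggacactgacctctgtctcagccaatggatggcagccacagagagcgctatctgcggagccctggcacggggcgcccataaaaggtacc

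The promoter table matched 32 of the 40 members, with 38 windows of 300 bases since some genes have several start sites. The ER stress element was in 6 of the 38 windows, against 0.119% of all 32851 windows in the table, and its 6 genes were Calr, Canx, Creld2, Hsp90b1, Hspa5 and Pdia6. Hsp90b1 held it at 2 positions. The heat shock element was in 4 windows, against 0.603% of all windows. These windows belonged to Hsph1, with 2 start sites, and to the pair Hspd1 and Hspe1, whose opposed start sites share 1 promoter and the same overlapping copies of the element. The amino acid response element was in 3 windows (Chac1, Herpud1 and Trib3), against 1.42% of all windows. The UPR element TGACGTGG was in 0 of the 38 windows and in 0.676% of all windows. A match is a description of these letters only, and none of the libraries measured binding at a promoter.

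Facts that apply to all libraries of the series are brief. Depth was recovered from the steps between low RPKM values. Its absolute scale was estimated from GENCODE transcript lengths and rests on 17 of 279 genes with a single length. Depth ran from about 4720000 to 19600000 reads in the stroke experiment. Its means were 14900000 for Cko-ST, 9090000 for Cko-NS, 10900000 for WT-ST and 8410000 for WT-NS. In the other experiment only relative depth could be recovered, and the deepest library had 2.45 times the reads of the shallowest. Gpr124 read 0.5 to 1.72 RPKM in Cko-ST, 0.994 to 4.85 RPKM in Cko-NS, 2.92 to 8.12 RPKM in WT-ST and 2.65 to 7.58 RPKM in WT-NS, so Cko-NS and WT-NS overlapped. All 10 endothelial markers were present in the table, and their summed level was 1437 to 1598 RPKM in Cko-ST, 1199.8 to 1436 RPKM in Cko-NS, 1314 to 1437 RPKM in WT-ST and 1002 to 1187 RPKM in WT-NS. That sum was thus higher in every ST library than in any NS library of its genotype. Singly, 2 of these markers rose and 2 fell in Cko mice after stroke, and 3 rose and 1 fell in WT mice. In these bulk samples fewer cells of a type and less RNA per cell cannot be told apart.

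Library 4 of Cko-NS stood apart from its group. It was labelled female but carried Y-linked transcripts (sum 189 RPKM), and library 3 of Cko-ST was labelled male but carried Xist and almost no Y-linked transcripts. Cko-ST library 4 was male by label and by RNA (sum 248.9 RPKM). All other stroke libraries were female by RNA, so sex cannot be told apart from other traits of library 4 in Cko-NS and Cko-ST. The libraries male by label or RNA are thus Cko-NS library 4 and Cko-ST libraries 3 and 4. Cko-NS library 4 was the highest of its group in 24 of the 38 tested members and in 10 of the 12 cytosolic ones. Its summed neuronal markers reached 60.9 RPKM, against 11.4 to 20.2 RPKM in the other 3 libraries, and its summed blood leukocyte markers reached 83.3 RPKM, against 8.94 to 15.3 RPKM. Its Gpr124 value of 4.85 RPKM was the highest of the 8 Cko libraries and exceeded 3 of the 4 WT-NS libraries, so the targeted gene did not set it apart from WT-NS; whether these reads lie outside the deleted part was not tested. It is called here by its label. Cko-ST library 4 was the highest of its group in 23 of the 38 members and in 9 of the 12 cytosolic ones, and its summed pericyte and smooth muscle markers reached 103 RPKM, against 14.7 to 26.6 RPKM in the other 3 libraries. The part of these differences in the results was not tested, and the values without a library are given where it changes a call or a value resting on it.

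After stroke, members of the ER, mitochondrial and HSP90 groups and of the ATF4 branch were higher in both genotypes. Differences are log2 fold changes of RPKM + 1 with their standard errors, tested with limma in 1 fit of all 16 stroke libraries and adjusted over all 9838 genes by the Benjamini-Hochberg method, with a threshold of 0.05. In Cko mice 12 of 38 members rose in the stroke hemisphere and 1 fell, against a background of 6.44% higher and 8.71% lower among all genes tested. In WT mice 11 of 38 rose and 0 fell, where the background was 8.46% higher and 4.84% lower. Across the 38 members the median difference was 0.59 in Cko mice, where the median of all genes was -0.13, and 0.64 in WT mice, where the median of all genes was 0.01. Values were above 0 for 32 of 38 members in each genotype, against 41.4% of all genes in Cko mice and 50.8% in WT mice. In Cko mice the 2 hemispheres did not overlap for 6 members (15.8%), all higher in ST. Of all genes 7.4% were higher and 11.4% lower without overlap, together 18.8%. With both directions pooled the members' share was thus not above that of all genes. For higher in ST alone it was 15.8% of members against 7.4% of all genes. In WT mice the hemispheres did not overlap for 18 members (47.4%), all higher in ST, against 11.9% of all genes higher and 8.7% lower, together 20.6%. Every member past the threshold moved in that direction in 4 of 4 same-numbered library pairs. Since the calls rest on these same libraries, that is no separate support.

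The Cko count was the less stable of the pair. It was 8 without Cko-ST library 2, 8 without Cko-ST library 4, and 7 when only these 2 groups were fitted, while it was 15 without Cko-NS library 4. The labels do not pair hemispheres, but same-numbered Cko libraries correlated at 0.104 to 0.218, just over the limit of 0.1 set for pairing. Other-numbered Cko-ST and WT-ST libraries, from different animals, reached 0.168, so that limit cannot show pairing. With library number as a block 15 members were higher and 1 lower in Cko, Calr, Hsp90b1 and Dnaja1 being added. In WT, where correlations of 0.0117 to 0.13 were not each over the limit, the same block gave 15 higher and 0 lower.

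**Figure D1:**
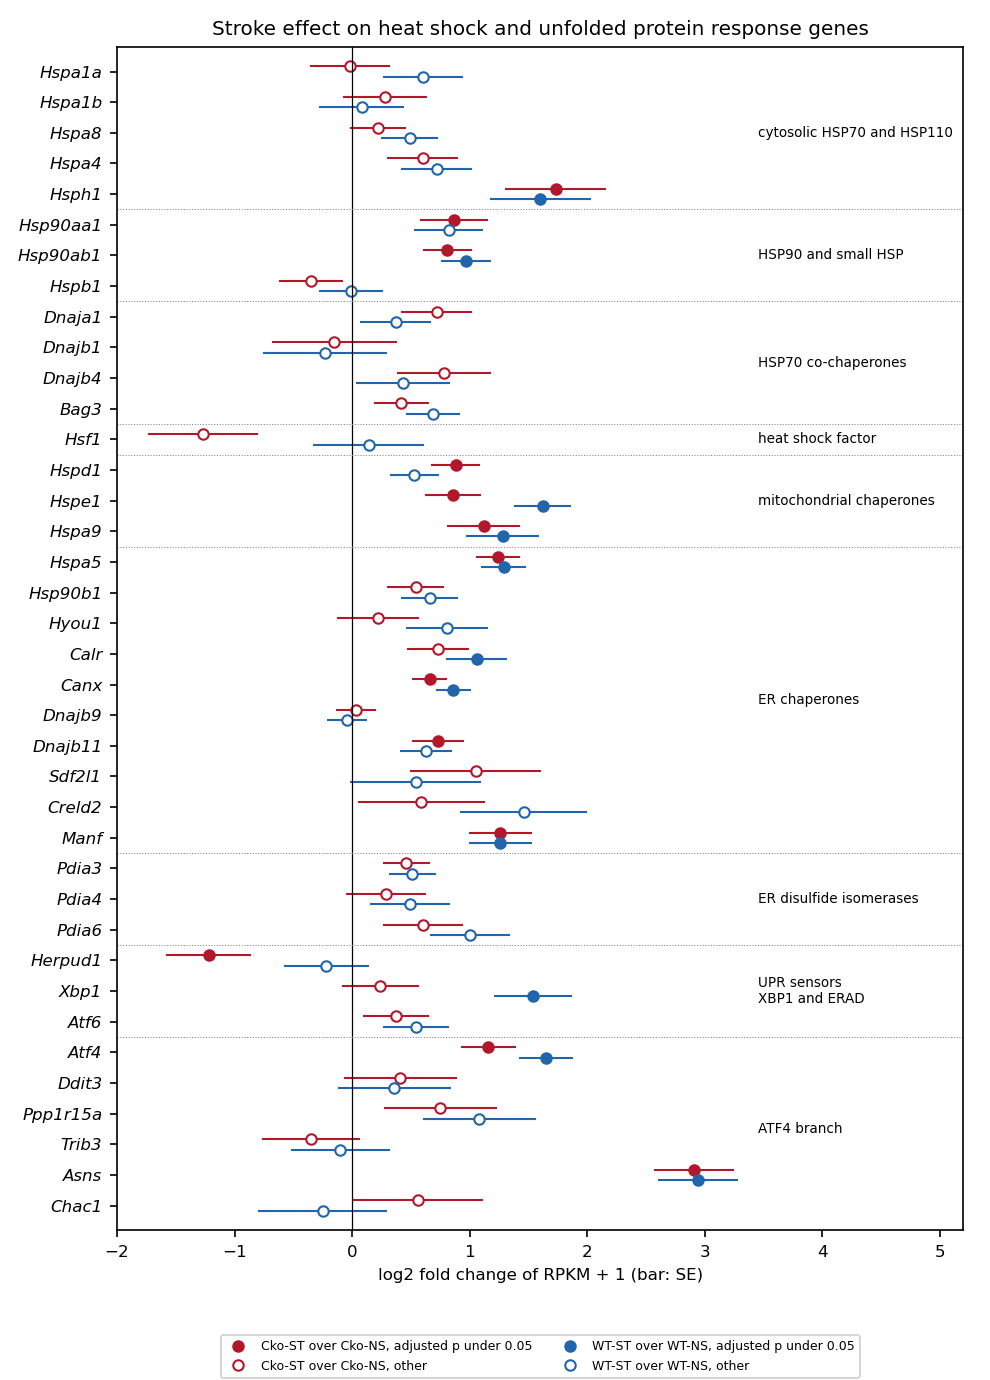
Log2 fold change of RPKM + 1 between the stroke and the non-stroke hemisphere for the 38 tested members, Cko above WT in each row, with bars of 1 standard error and filled circles for adjusted p under 0.05, and roles named at the right. Asns lies near 2.9 in both genotypes, most ER and mitochondrial chaperones lie above 0, Xbp1 and Hspe1 lie further right in WT than in Cko, and Herpud1 and Hsf1 lie left of 0 in Cko.

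The 2 stroke comparisons have no library in common. Of the members that rose, 9 rose in both, which is 75.0% of the 12 in Cko mice and 81.8% of the 11 in WT mice. These were Asns, Atf4, Canx, Hsp90ab1, Hspa5, Hspa9, Hspe1, Hsph1 and Manf. Over all genes 446 rose in both, or 70.3% of 634 in Cko mice and 53.6% of 832 in WT mice.

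**Figure D2:**
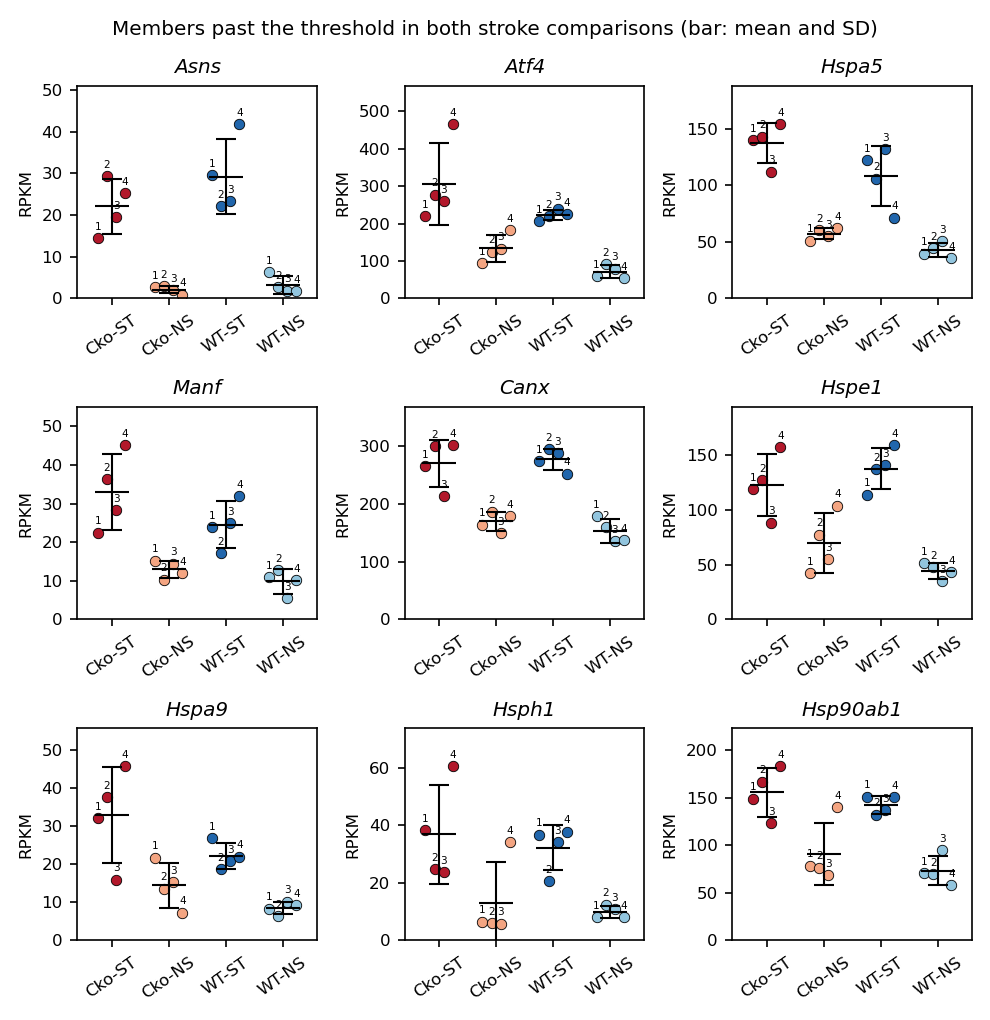
RPKM in each of the 16 stroke libraries for the 9 members that rose in both genotypes, with library numbers beside the points and bars for the group mean and SD. Each panel starts at 0. Asns, Atf4, Hspa5, Manf and Canx separate ST from NS in both genotypes, whereas the Cko-NS libraries of Hspe1, Hspa9, Hsph1 and Hsp90ab1 reach into the Cko-ST range.

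In the ATF4 branch 2 of the 6 tested members rose in each genotype, and Asns had the largest difference of all 38 members in both. Asns, asparagine synthetase and a classical ATF4 target, had 14.4, 29.3, 19.5 and 25.2 RPKM in Cko-ST, against 2.65, 2.9, 1.92 and 0.896 RPKM in Cko-NS. In WT mice it had 29.6, 22.1, 23.4 and 41.8 RPKM in WT-ST, against 6.35, 2.68, 1.87 and 1.74 RPKM in WT-NS. Every ST library was above every NS library by a wide margin, and limma gave 2.91 ± 0.34 (adjusted p = 2.33e-05) in Cko and 2.94 ± 0.34 (adjusted p = 1.7e-05) in WT. Atf4, the transcription factor itself, had 219.8, 277, 259 and 465 RPKM in Cko-ST, against 94.8, 125, 133 and 182 RPKM in Cko-NS. It had 206, 219.7, 239.9 and 225 RPKM in WT-ST, against 60.2, 92.2, 79.4 and 54.2 RPKM in WT-NS. The hemispheres again did not overlap, and the differences were 1.16 ± 0.23 (limma, adjusted p = 0.00231) in Cko and 1.65 ± 0.23 (adjusted p = 0.00011) in WT. Both genes passed under every alternative setting tried in both genotypes.

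The other measured ATF4-branch members did not pass. Ddit3, which encodes the pro-apoptotic factor CHOP, averaged 9.64 ± 4.27 RPKM in Cko-ST and 7.05 ± 3.42 RPKM in Cko-NS, with 8.71 ± 8.59 RPKM in WT-ST and 5.45 ± 3.17 RPKM in WT-NS (SD, n = 4 each). Ppp1r15a, the GADD34 subunit that returns eIF2alpha to its unphosphorylated form, averaged 11.6 ± 4.29 RPKM in Cko-ST and 6.66 ± 3.46 RPKM in Cko-NS, with 7.27 ± 1.83 RPKM in WT-ST and 4.02 ± 3.88 RPKM in WT-NS. For Ddit3 the differences were 0.41 ± 0.48 in Cko (limma, adjusted p = 0.604) and 0.36 ± 0.48 in WT (adjusted p = 0.694), and for Ppp1r15a they were 0.75 ± 0.48 (adjusted p = 0.311) and 1.08 ± 0.48 (adjusted p = 0.149). Trib3 and Chac1, a pseudokinase and a glutathione-degrading enzyme that ATF4 and CHOP induce, stayed between 0.0 and 4.16 RPKM in all 16 libraries.

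Among ATF4 targets outside the 40, listed with the members, 5 of 26 tested genes rose and 4 fell in Cko mice, and 9 rose and 2 fell in WT mice. Over all genes tested 6.44% rose and 8.71% fell in Cko mice, and 8.46% rose and 4.84% fell in WT mice. The list's median was 0.58 in Cko and 0.76 in WT. Mthfd2, a mitochondrial folate enzyme, averaged 13.8 ± 3.55 RPKM in Cko-ST and 0.99 ± 0.764 RPKM in Cko-NS (2.94 ± 0.36, limma adjusted p = 3.85e-05). It averaged 17.8 ± 6.7 RPKM in WT-ST and 1.68 ± 1.08 RPKM in WT-NS (2.87 ± 0.36, adjusted p = 4.48e-05). The cystine transporter gene Slc7a11 also rose in both genotypes, by 1.11 ± 0.25 in Cko and 1.31 ± 0.25 in WT, but at low levels. It averaged 1.64 ± 0.516 RPKM in Cko-ST and 0.208 ± 0.0532 RPKM in Cko-NS, with 2.26 ± 0.677 RPKM in WT-ST and 0.306 ± 0.214 RPKM in WT-NS. Slc38a2, a transporter of small neutral amino acids, rose in Cko mice (1.03 ± 0.24, adjusted p = 0.00759). In contrast, Slc7a5 and Slc7a1 fell: Slc7a5 differed by -2.34 ± 0.35 in Cko (adjusted p = 0.000236) and -1.4 ± 0.35 in WT (adjusted p = 0.0128), and Slc7a1 by -1.04 ± 0.17 in Cko (adjusted p = 0.000421) and -1.45 ± 0.17 in WT (adjusted p = 1.7e-05). These 2 genes encode transporters of large neutral and of cationic amino acids. The others that fell in Cko were Ddit4 (-1.05 ± 0.26, limma adjusted p = 0.0104) and Slc3a2 (-0.67 ± 0.21, adjusted p = 0.0342). The number of risen genes on this list varied from 3 to 7 in Cko and from 5 to 10 in WT over the alternative settings, the lowest in WT without WT-ST library 3.

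Of the 10 ER chaperones 4 rose in each genotype and 0 fell. Hspa5, the ER HSP70 (BiP) that holds the ER stress sensors inactive, had 140.1, 143, 112 and 154 RPKM in Cko-ST, against 51.2, 60.4, 55.3 and 62.1 RPKM in Cko-NS. In WT mice it had 122, 106, 132 and 71.4 RPKM in WT-ST, against 39.7, 44.7, 50.9 and 35.7 RPKM in WT-NS. The hemispheres did not overlap in either genotype, and the differences were 1.24 ± 0.19 in Cko (limma, adjusted p = 0.000232) and 1.29 ± 0.19 in WT (adjusted p = 0.000164). Manf, a secreted ER stress protein with neurotrophic activity, had 22.5, 36.4, 28.3 and 45.1 RPKM in Cko-ST, against 15.2, 10.3, 14.4 and 11.9 RPKM in Cko-NS. It had 23.9, 17.1, 25 and 32 RPKM in WT-ST, against 10.9, 12.8, 5.42 and 10.2 RPKM in WT-NS. Its lowest ST value exceeded its highest NS value in both genotypes, with differences of 1.26 ± 0.27 in Cko (limma, adjusted p = 0.0041) and 1.26 ± 0.27 in WT (adjusted p = 0.00415). Without the libraries that are male by label or RNA, Manf in Cko had 1.07 ± 0.35 and an adjusted p of 0.0638.

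The lectin chaperones, which retain unfinished glycoproteins in the ER, also rose. Canx (calnexin) averaged 269.7 ± 41.2 RPKM in Cko-ST and 169.9 ± 16.6 RPKM in Cko-NS (0.66 ± 0.15, limma adjusted p = 0.00505), and 277 ± 18.3 RPKM in WT-ST and 152 ± 20.6 RPKM in WT-NS (0.86 ± 0.15, adjusted p = 0.00065). Calr (calreticulin) averaged 69.2 ± 4.94 RPKM in WT-ST and 33.3 ± 7.6 RPKM in WT-NS, a difference of 1.06 ± 0.26 (limma, adjusted p = 0.0111). In Cko mice it averaged 70.1 ± 18.8 RPKM in ST and 43.7 ± 20.2 RPKM in NS, where 0.73 ± 0.26 did not pass (adjusted p = 0.071). There Cko-NS library 4 read 72.9 RPKM and the others 28 to 41 RPKM. Calr passed in Cko without that library (1.00 ± 0.23, adjusted p = 0.00766) and with library number as a block (0.73 ± 0.19, adjusted p = 0.0224). Dnajb11, a luminal J-domain partner of BiP, averaged 31 ± 6.26 RPKM in Cko-ST and 18.3 ± 4.24 RPKM in Cko-NS (0.73 ± 0.22, adjusted p = 0.029), but lost its call when any of 5 single libraries was left out.

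Other ER members did not pass in either genotype. Hsp90b1 (GRP94), the ER form of HSP90, had 0.54 ± 0.24 in Cko (limma, adjusted p = 0.136) and 0.66 ± 0.24 in WT (adjusted p = 0.0748). Its WT-ST libraries were all above its WT-NS libraries. With library number as a block it passed in Cko (0.54 ± 0.15, limma adjusted p = 0.0254) and in WT (0.66 ± 0.15, adjusted p = 0.0101), although pairing is not established in either. Dnajb9, a J-domain protein that restrains IRE1, averaged 358 ± 59.3 RPKM in Cko-ST and 348 ± 31.1 RPKM in Cko-NS, with 328 ± 54.4 RPKM in WT-ST and 338 ± 62.6 RPKM in WT-NS. Its differences were 0.03 ± 0.17 (adjusted p = 0.922) and -0.04 ± 0.17 (adjusted p = 0.912), with the smallest standard error among the ER members that did not pass. Creld2, Hyou1 and Sdf2l1, which assist folding in the ER, varied widely among libraries, and Creld2 in WT-ST ran from 11.3 to 51.7 RPKM. The disulfide isomerases Pdia3, Pdia4 and Pdia6 lay above 0 in both genotypes, between 0.29 and 1.00, and 0 of 3 passed in either by limma (unadjusted p under 0.05 for Pdia3 in both and for Pdia6 in WT).

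Of the 6 genes with an ER stress element in the window, 2 rose in Cko mice (Hspa5 and Canx) and 3 in WT mice (these and Calr). All 3 genes with a heat shock element, Hspd1, Hspe1 and Hsph1, rose in Cko mice, and 2 of them in WT mice. Of the 3 genes with an amino acid response element 0 rose in either genotype, but Trib3 and Chac1 averaged only 1.06 and 1.44 RPKM in the stroke libraries. Asns, which rose in both genotypes, held no match to the letters searched, and other forms of these elements were not searched. Among all genes tested 6.44% rose in Cko mice and 8.46% in WT mice.

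Of 18 tested genes on a list of other ER folding genes, 1 rose in Cko mice, where 6.44% of all genes rose, and 0 in WT mice, where 8.46% did. The list's medians were -0.05 and 0.12. The 1 gene was P4hb, a protein disulfide isomerase, at 0.80 ± 0.21 in Cko (limma, adjusted p = 0.0169). Of 26 tested genes for ER-associated degradation and translocation, 0 rose and 1 fell in Cko mice, and 2 rose and 0 fell in WT mice. Those were Sec62 in Cko (-0.59 ± 0.14) and Sec61g and Vcp in WT (1.12 ± 0.24 and 1.01 ± 0.29), of which Sec61g encodes a subunit of the ER import channel and Vcp the ATPase that extracts proteins for degradation. Of 14 other sensors and factors of the unfolded protein response, 0 rose and 1 fell in Cko mice (Tmbim6, -0.67 ± 0.18), and 3 rose in WT mice (Bax, Eif2s1 and Ppp1r15b).

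Of the 3 tested members among the sensors, XBP1 and degradation factors, 0 rose and 1 fell in Cko mice, and 1 rose and 0 fell in WT mice. Xbp1, whose mRNA IRE1 splices to make the active factor, had 30.2, 23.3, 19.1 and 37.8 RPKM in WT-ST, against 4.62, 11.5, 12.3 and 7.8 RPKM in WT-NS. All WT-ST libraries were higher, with a difference of 1.54 ± 0.33 (limma, adjusted p = 0.00378). In Cko mice it had 19.1, 26.2, 24.6 and 24.8 RPKM in ST, against 25.1, 29, 21.6 and 9.51 RPKM in NS. These hemispheres overlapped, and 0.24 ± 0.33 did not pass (adjusted p = 0.667), and was -0.09 without NS library 4. Gene-level values do not separate spliced from unspliced Xbp1. Herpud1, which recruits ER degradation machinery, had 9.95, 7.4, 18.8 and 5.31 RPKM in Cko-ST, against 40.5, 20.5, 27.6 and 12.3 RPKM in Cko-NS. It was lower in ST, with overlap between ST library 3 and NS library 4, at -1.22 ± 0.36 (limma, adjusted p = 0.0288), and lost its call under 9 of 18 alternatives, among them 5 that left out 1 library. In WT mice Herpud1 averaged 11.6 ± 4.27 RPKM in ST and 13.4 ± 2.84 RPKM in NS (-0.22 ± 0.36, adjusted p = 0.762). Atf6, the membrane-bound sensor and factor, averaged 7.88 ± 0.597 RPKM in Cko-ST, 6.47 ± 3.97 RPKM in Cko-NS, 8.2 ± 1.09 RPKM in WT-ST and 5.29 ± 0.478 RPKM in WT-NS, and passed in neither genotype.

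The mitochondrial chaperones rose in 3 of 3 members in Cko mice and 2 of 3 in WT mice. Hspe1, the HSP10 lid of the mitochondrial folding chamber, had 114, 137, 141 and 159 RPKM in WT-ST, against 51.4, 47.5, 34.7 and 43.4 RPKM in WT-NS. That is a difference of 1.62 ± 0.24 (limma, adjusted p = 0.000193) without overlap. In Cko mice it averaged 123 ± 28.2 RPKM in ST and 69.5 ± 26.9 RPKM in NS (0.86 ± 0.24, adjusted p = 0.0207), with overlap between ST library 3 and NS library 4. Hspd1, the HSP60 barrel it closes, had 38.6, 29.7, 23.8 and 40.4 RPKM in Cko-ST, against 16.9, 15.9, 13.3 and 24.4 RPKM in Cko-NS (0.88 ± 0.21, adjusted p = 0.00967). Only NS library 4 exceeded the lowest ST library. In WT mice Hspd1 averaged 27.1 ± 1.55 RPKM in ST and 18.7 ± 3.17 RPKM in NS, where 0.53 ± 0.21 did not pass (adjusted p = 0.117) although the hemispheres did not overlap. Hspa9, mitochondrial HSP70, had 32.1, 37.7, 16 and 45.8 RPKM in Cko-ST, against 21.8, 13.6, 15.3 and 7.27 RPKM in Cko-NS (1.12 ± 0.31, adjusted p = 0.0214). It had 26.9, 18.8, 20.9 and 22 RPKM in WT-ST, against 8.32, 6.38, 10.2 and 9.28 RPKM in WT-NS (1.28 ± 0.31, adjusted p = 0.0102). The hemispheres overlapped in Cko through ST library 3 and NS library 1 and did not overlap in WT. In Cko, Hspe1 and Hspa9 each lost the call when any of 4 single libraries was left out. Of 11 other mitochondrial proteostasis genes, 0 rose in Cko mice and 1 in WT mice, the protease subunit Clpp at 1.36 ± 0.42 (limma, adjusted p = 0.0381). The share of all genes that rose was 6.44% in Cko mice and 8.46% in WT mice, so 1 of 11 is near that share.

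In the cytosol, HSP90, HSP110 and the chaperonin moved, while the inducible HSP70 genes and the small heat shock protein Hspb1 did not pass. Hsph1 (HSP110), which recharges HSP70 with nucleotide, had 36.8, 20.6, 34.1 and 37.8 RPKM in WT-ST, against 8.2, 12.4, 10.8 and 8.0 RPKM in WT-NS. All WT-ST libraries were higher, with 1.60 ± 0.43 (limma, adjusted p = 0.0185), and the adjusted p lay between 0.0504 and 0.0522 when WT-NS library 4, WT-ST library 1 or WT-ST library 4 was left out. In Cko mice Hsph1 had 38.3, 24.9, 23.7 and 60.6 RPKM in ST, against 6.57, 6.02, 5.87 and 34.1 RPKM in NS. Only NS library 4 reached the ST range, and the difference was 1.73 ± 0.43 (adjusted p = 0.0109), rising to 2.30 without that library. Hsp90ab1, the constitutive cytosolic HSP90, averaged 156 ± 25.8 RPKM in Cko-ST and 90.9 ± 33 RPKM in Cko-NS (0.81 ± 0.21, adjusted p = 0.0129), and 143 ± 9.72 RPKM in WT-ST and 73.3 ± 15.4 RPKM in WT-NS (0.97 ± 0.21, adjusted p = 0.00415). Hsp90aa1, the stress-inducible HSP90, had 456, 328, 279 and 629 RPKM in Cko-ST, against 201, 175, 159.6 and 419 RPKM in Cko-NS. The hemispheres overlapped through NS library 4, and 0.87 ± 0.29 passed only just (adjusted p = 0.0498), in 6 of 18 alternatives. Without that library it was 1.17 ± 0.25 (adjusted p = 0.00457). In WT mice it averaged 401 ± 67.4 RPKM in ST and 229 ± 59.5 RPKM in NS without overlap, and 0.82 ± 0.29 did not pass (adjusted p = 0.0674). It passed there in 3 of 17 alternatives, among them a fit of these 2 groups alone (limma, adjusted p = 0.0162) and library number as a block (adjusted p = 0.00239).

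**Figure D3:**
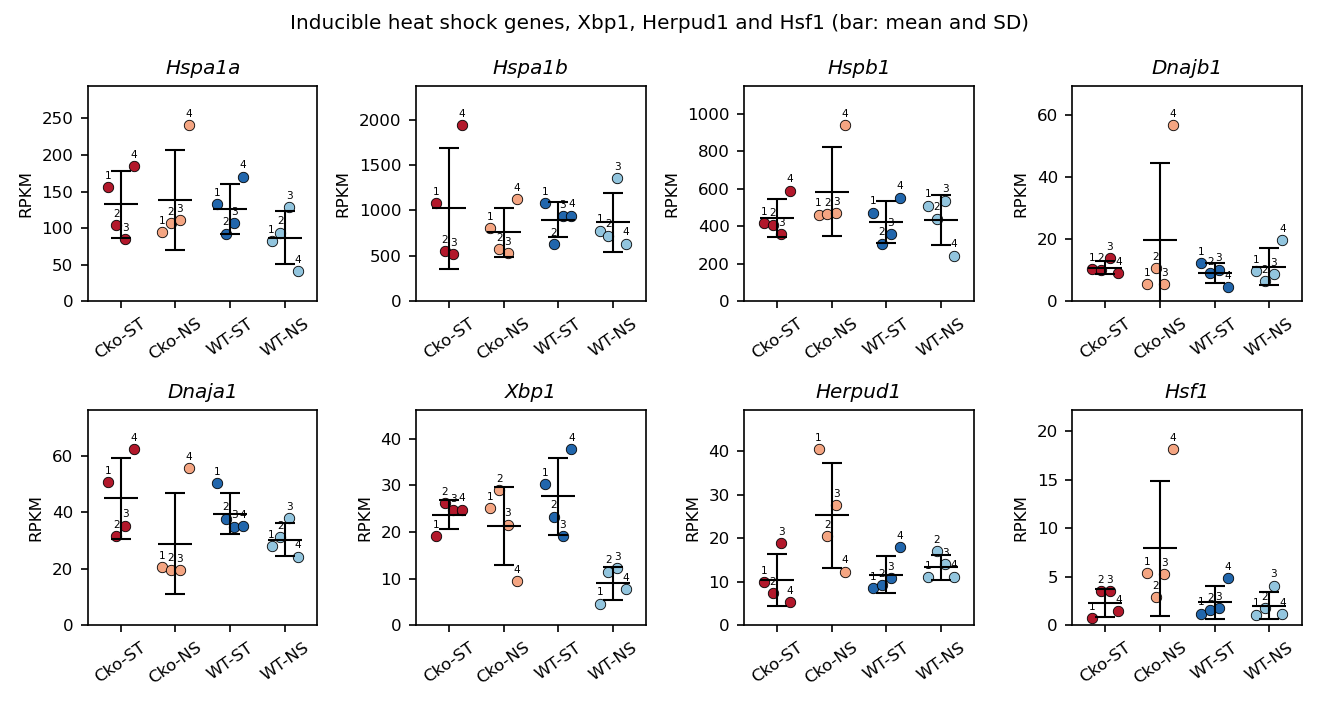
RPKM in each of the 16 stroke libraries for 5 inducible heat shock genes and for Xbp1, Herpud1 and Hsf1, with library numbers beside the points and bars for the group mean and SD, which are drawn only above 0. The hemispheres overlap for Hspa1a, Hspa1b, Hspb1, Dnajb1 and Dnaja1, and Cko-NS library 4 is the highest of its group in these 5 panels and in Hsf1; Xbp1 has its lowest mean in WT-NS.

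The inducible HSP70 pair Hspa1a and Hspa1b are near-identical genes whose reads could be split between them, so their sum is also given. It was 1236, 653, 606 and 2127 RPKM in Cko-ST, against 901, 680.2, 640.3 and 1368 RPKM in Cko-NS. In WT mice it was 1213, 719, 1046 and 1113 RPKM in ST, against 862, 816, 1481 and 678 RPKM in NS. The hemispheres overlapped in both genotypes. Singly, Hspa1a differed by -0.02 ± 0.34 in Cko (limma, adjusted p = 0.974) and 0.60 ± 0.34 in WT (adjusted p = 0.277), and Hspa1b by 0.28 ± 0.36 (adjusted p = 0.643) and 0.08 ± 0.36 (adjusted p = 0.921). Hspb1 (HSP27, an actin-stabilising chaperone) averaged 443 ± 102 RPKM in Cko-ST and 585 ± 237 RPKM in Cko-NS, with 423 ± 111 RPKM in WT-ST and 433 ± 132 RPKM in WT-NS. It did not pass in either genotype (-0.35 ± 0.27 and -0.01 ± 0.27). Hspa8, the constitutive HSP70, and Hspa4, an HSP110 relative, did not pass either, with 0.22 ± 0.24 and 0.60 ± 0.30 in Cko and 0.49 ± 0.24 and 0.72 ± 0.30 in WT.

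The co-chaperones that deliver clients to HSP70 gave 0 of 4 called members in each genotype by limma. With library number as a block Dnaja1 passed in Cko (0.72 ± 0.22, adjusted p = 0.0401). Without that block 1 member had an unadjusted p under 0.05 in Cko mice (Dnaja1), as had 1 in WT mice (Bag3). Dnaja1 differed by 0.72 ± 0.30 in Cko and 0.37 ± 0.30 in WT, Dnajb1 by -0.15 ± 0.53 and -0.23 ± 0.53, Dnajb4 by 0.78 ± 0.40 and 0.43 ± 0.40, and Bag3 by 0.42 ± 0.23 and 0.69 ± 0.23. Bag3 had an adjusted p of 0.057 in WT and did not overlap there. Hsf1, the factor that drives this programme after activation of its protein, averaged 2.33 ± 1.42 RPKM in Cko-ST and 7.93 ± 6.92 RPKM in Cko-NS, with 2.38 ± 1.7 RPKM in WT-ST and 2.04 ± 1.41 RPKM in WT-NS. The Hsf1 differences were -1.27 ± 0.47 in Cko (limma, adjusted p = 0.0812) and 0.14 ± 0.47 in WT (adjusted p = 0.894), and neither passed. Its Cko-NS mean was raised by library 4 at 18.2 RPKM, the others reading 2.89 to 5.37 RPKM.

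Immediate-early genes, which tissue digestion is known to raise together with heat shock genes, were summed beside these members. Their sum was 4755 to 6911 RPKM in Cko-ST, 2314 to 5461 RPKM in Cko-NS, 3917 to 7281 RPKM in WT-ST and 1950.5 to 6005 RPKM in WT-NS, so the hemispheres overlapped in both genotypes. The sum was nevertheless higher in ST in 4 of 4 same-numbered pairs in each genotype. Of these 12 genes 1 rose in Cko mice, where 6.44% of all genes rose, and 0 in WT mice, where 8.46% did. Their part in the results was not tested.

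Of the 8 genes of the TRiC chaperonin, the ring that folds actin and tubulin and which lies outside the 40, 6 rose in Cko mice and 5 in WT mice, and 0 fell. The background over all genes was 6.44% higher and 8.71% lower in Cko mice, and 8.46% higher and 4.84% lower in WT mice. The chaperonin medians were 0.96 in Cko and 0.98 in WT. Cct2 averaged 51.2 ± 8.21 RPKM in Cko-ST and 25.7 ± 10.2 RPKM in Cko-NS (1.03 ± 0.22, limma adjusted p = 0.0041), and 49.6 ± 7.42 RPKM in WT-ST and 21.7 ± 1.84 RPKM in WT-NS (1.15 ± 0.22, adjusted p = 0.00193). Cct3 likewise differed by 1.25 ± 0.25 in Cko and 1.16 ± 0.25 in WT. The number risen was 3 to 6 in Cko, lowest without the libraries male by label or RNA, and 4 to 7 in WT over the alternatives. Among 26 other cytosolic heat shock genes 4 rose in Cko mice and 5 in WT mice, with 0 and 1 lower. These included the HSP90 partners Stip1 (1.01 ± 0.31 in Cko and 1.30 ± 0.31 in WT) and Ptges3 (0.52 ± 0.14 and 0.69 ± 0.14). St13, an HSP70 partner, rose by 0.93 ± 0.30 in Cko and 1.30 ± 0.30 in WT. Of the small heat shock genes listed, Cryab rose in Cko (2.14 ± 0.71, limma adjusted p = 0.0491) and Hspb8 in WT (0.92 ± 0.19, adjusted p = 0.00265). Hspb6 fell in WT (-1.16 ± 0.37, limma adjusted p = 0.0468). In Cko mice 0 of these 26 passed without Cko-NS library 1 or without Cko-ST library 2.

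The markers of other cells moved as follows beside these results. Summed pericyte and smooth muscle markers were 14.7 to 103 RPKM in Cko-ST and 23.3 to 32.5 RPKM in Cko-NS, and 11.3 to 48.6 RPKM in WT-ST and 45.3 to 66.9 RPKM in WT-NS. Summed neuronal markers were 5.15 to 8.94 RPKM in Cko-ST and 11.4 to 60.9 RPKM in Cko-NS, and 9.93 to 21.2 RPKM in WT-ST and 19.1 to 26.7 RPKM in WT-NS, so they were lower in every Cko-ST library than in any Cko-NS library. Summed microglial and macrophage markers were 0.814 to 3.6 RPKM in Cko-ST and 7.01 to 16.3 RPKM in Cko-NS, and 1.07 to 4.71 RPKM in WT-ST and 1.06 to 83.2 RPKM in WT-NS, again without overlap in Cko. Red cell genes summed to 1642 to 21005 RPKM in Cko-ST and 6452 to 43290.3 RPKM in Cko-NS, and 4119 to 11467 RPKM in WT-ST and 9141 to 16004 RPKM in WT-NS. Oligodendrocyte sums overlapped in both genotypes as the red cell sums did, with 20.9 to 277 RPKM in Cko-ST, 44.6 to 531 RPKM in Cko-NS, 29.8 to 376 RPKM in WT-ST and 186 to 1019.6 RPKM in WT-NS. Both sums were lower in ST in 4 of 4 same-numbered pairs in each genotype. Summed blood leukocyte markers, 6 of 7 of which were in the table, were 4.26 to 19.5 RPKM in Cko-ST and 8.94 to 83.3 RPKM in Cko-NS, and 2.08 to 42.6 RPKM in WT-ST and 0.0 to 7.68 RPKM in WT-NS. Every Cko-NS library thus exceeded every WT-NS library in that sum. Astrocyte sums did not exceed 17.5 RPKM. Of the genes in the pericyte and smooth muscle sum, Rgs5 read 7.84 to 93.8 RPKM in Cko-ST, 16.6 to 28.2 RPKM in Cko-NS, 5.03 to 43.8 RPKM in WT-ST and 38.2 to 57.6 RPKM in WT-NS. Among the other pericyte genes Pdgfrb did not exceed 0.716 RPKM in any of the 16 libraries, and Kcnj8 was at 0 in all 4 WT-ST libraries. Their part in the chaperone differences was not tested.

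Genotype was compared within each hemisphere, with the same fit. In the non-stroke hemisphere 0 of 38 members differed between Cko-NS and WT-NS after adjustment by limma, and 7 had an unadjusted p under 0.05, against 0.315% of all genes called (0.224% higher and 0.0915% lower) and 14.3% at the unadjusted level. The members' median was 0.27 and that of all genes 0.11. Atf4 had 94.8, 125, 133 and 182 RPKM in Cko-NS, against 60.2, 92.2, 79.4 and 54.2 RPKM in WT-NS. Every Cko-NS library was higher, but 0.89 ± 0.23 did not pass (adjusted p = 0.0926), nor did it under any alternative (adjusted p 0.0639 to 0.238). Hspa5 did not overlap either, at 57.3 ± 4.99 RPKM in Cko-NS and 42.7 ± 6.55 RPKM in WT-NS (0.42 ± 0.19, adjusted p = 0.317). These 2 of 38 members without overlap stand beside 8.7% of all genes.

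Xbp1 had 25.1, 29, 21.6 and 9.51 RPKM in Cko-NS, against 4.62, 11.5, 12.3 and 7.8 RPKM in WT-NS. Of the Cko-NS libraries 1 to 3 lay above every WT-NS library and library 4 did not, and 1.12 ± 0.33 did not pass (limma, adjusted p = 0.123). Without Cko-NS library 4 the difference was 1.45 ± 0.29 (adjusted p = 0.0325), and without all libraries male by label or RNA it was 1.45 ± 0.31 (adjusted p = 0.0471). Hsf1 had 5.37, 2.89, 5.31 and 18.2 RPKM in Cko-NS, against 1.12, 1.77, 4.11 and 1.15 RPKM in WT-NS (1.38 ± 0.47, adjusted p = 0.193), and the difference was 0.93 ± 0.44 without library 4 (adjusted p = 0.364). Hspa4 had 7.77, 7.71, 14.2 and 11.1 RPKM in Cko-NS, against 3.2, 10.6, 4.78 and 5.23 RPKM in WT-NS (0.75 ± 0.30, adjusted p = 0.264). Both overlapped between genotypes.

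In the stroke hemisphere 0 of 38 members differed between Cko-ST and WT-ST by limma, and 1 had an unadjusted p under 0.05, where 0.0% of all genes were called and 4.84% had an unadjusted p under 0.05. The member was Hspa4, with 16.2, 14.7, 18.5 and 13.2 RPKM in Cko-ST, against 11.8, 9.94, 11.5 and 6.42 RPKM in WT-ST. These did not overlap, as for 3.32% of all genes (1.46% higher and 1.86% lower), and the difference was 0.63 ± 0.30 (adjusted p = 0.994). Hspa5 had 140.1, 143, 112 and 154 RPKM in Cko-ST, against 122, 106, 132 and 71.4 RPKM in WT-ST (0.37 ± 0.19, adjusted p = 0.994), and overlapped. Atf4 differed by 0.40 ± 0.23 and Pdia4 by -0.60 ± 0.34, both with an adjusted p of 0.994. Pdia4 had 15.7, 22.2, 7.28 and 21.1 RPKM in Cko-ST, against 33.5, 18.5, 23.4 and 22 RPKM in WT-ST.

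Whether the stroke difference itself depended on genotype was tested as an interaction, the Cko difference minus the WT difference. None of the 38 members passed (0 by limma, against 0.0% of all genes), and 2 had an unadjusted p under 0.05, where 7.02% of all genes had. These were Xbp1, at -1.30 ± 0.46 (adjusted p = 0.681), and Hspe1, at -0.76 ± 0.34 (adjusted p = 0.695). Hsf1 and Herpud1 came next, at -1.40 ± 0.67 (adjusted p = 0.708) and -1.0 ± 0.51 (adjusted p = 0.71). Without Cko-NS library 4 these 4 differences were -1.63 for Xbp1, -0.54 for Hspe1, -0.95 for Hsf1 and -1.29 for Herpud1, with adjusted p from 0.674 to 0.753. The call for Xbp1 in WT mice and for Herpud1 in Cko mice is therefore not shown to differ between genotypes.

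In the beta-catenin experiment 0 of 38 members differed between Bcat and WT by limma, and 0 had an unadjusted p under 0.05, where 0.0% of all 11252 genes were called and 5.24% had an unadjusted p under 0.05. The members' median was -0.06 and that of all genes -0.06. The groups did not overlap for 7 members (18.4%), a share near the 20.4% of all genes. In Bcat 1 of these was higher and 6 were lower, against 8.66% and 11.7% of all genes. The one higher was Hsf1 and the lower ones were Pdia3, Xbp1, Hspe1, Hspa9, Dnajb11 and Herpud1. The summed endothelial markers were lower in every Bcat library (1694 to 1913 RPKM) than in WT (1998 to 2261 RPKM), and the summed red cell genes were higher in every Bcat library (25989 to 51448 RPKM) than in WT (23382 to 24811 RPKM). Their part in the members' values was not tested. A missed threshold does not show that the groups were alike.

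Pdia3, the isomerase that works with calnexin and calreticulin, had 66.3, 75.9 and 36 RPKM in Bcat, against 103 and 85.5 RPKM in WT (-0.72 ± 0.34, limma adjusted p = 0.957). Xbp1 had 23.9, 34.3 and 29.5 RPKM in Bcat, against 40.2 and 48.8 RPKM in WT (-0.60 ± 0.29, adjusted p = 0.957). Hspe1 had 11, 14.5 and 18.5 RPKM in Bcat, against 22.9 and 23.6 RPKM in WT (-0.66 ± 0.35, adjusted p = 0.961). All Bcat libraries were lower for these 3 genes, whereas Chac1 overlapped, with 0.0867, 0.0134 and 0.948 RPKM in Bcat, against 0.26 and 7.01 RPKM in WT (-1.30 ± 0.90, adjusted p = 0.966). Atf4 averaged 35.1 ± 11.3 RPKM in Bcat and 33.1 ± 7.17 RPKM in WT, Hspa5 96.3 ± 12.1 RPKM and 84.7 ± 3.32 RPKM, and Asns 2.11 ± 0.313 RPKM and 2.88 ± 0.628 RPKM (SD, n = 3 and 2). Bcat library 1 was the highest of its group in 20 of the 38 tested members and in 10 of the 12 cytosolic ones, among them Hspa1a at 354 RPKM, where the other Bcat libraries read 143 and 156 RPKM.

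**Figure D4:**
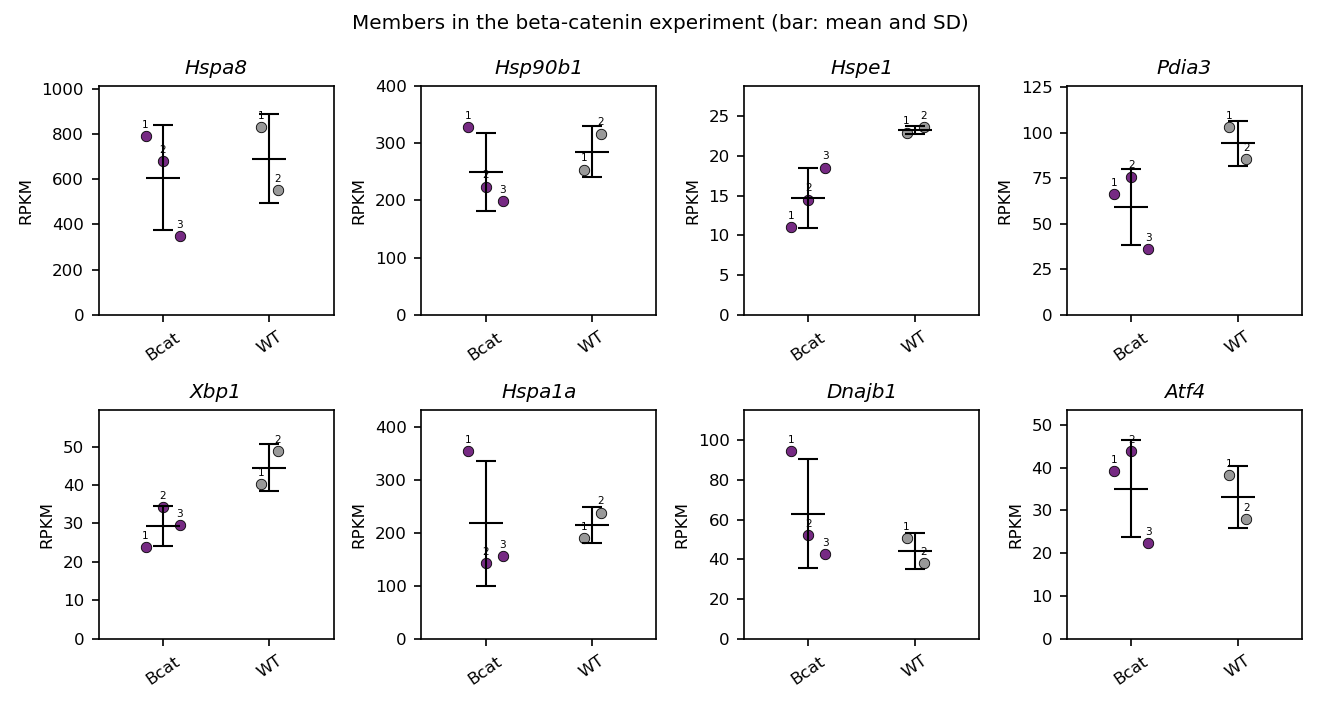
RPKM in the 3 Bcat and 2 WT libraries of the beta-catenin experiment for 8 members, with library numbers beside the points and bars for the group mean and SD. Hspe1, Pdia3 and Xbp1 are lower in all 3 Bcat libraries, and the groups overlap for Hspa8, Hsp90b1, Hspa1a, Dnajb1 and Atf4.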

How the data were processed

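The authors deposited RPKM values, with edgeR and the mm10 build named in the submitters' processing notes. For the aligner, annotation, gene lengths and counting, the sources used here give nothing. Per the labels' protocols, the stroke libraries were amplified from the 3′ end of polyadenylated transcripts, so division by length makes RPKM comparable within a gene and not between genes. The table's 54 rows with shared names, 5 sex-linked genes and 8 columns of no described sample were left out.

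Values were tested as log2(RPKM + 1), a scale that understates changes of low genes, with limma 3.58.1 in R 4.3.3 (empirical Bayes with an intensity trend), for genes averaging 1 RPKM or more over the libraries fitted. The code was tested on simulated data first. All p-values are two-sided. The 4 stroke groups shared 1 fit without a block. Correlations of same-numbered libraries' deviations were 0.104 to 0.218 in Cko, each over the limit of 0.1 set for pairing. In WT they were 0.0117 to 0.13, not each over that limit. Other-numbered hemispheres of the same genotype reached at most 0.0592 in Cko and 0.0336 in WT. Other-numbered libraries of different genotype, which cannot share an animal, reached 0.168 between Cko-ST and WT-ST. The limit therefore cannot show which hemispheres are paired, and the block is given as an alternative only. Whether counting used strand is not stated.

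The members and lists were chosen with earlier results of these data known. Values per library are given for up to 8 called members per direction with the largest difference, or for the 4 of lowest p where none was called, and from other lists for at most 4 called genes per direction. Promoters are 300 bases from RefSeq, 250 before and 50 after the start.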

Additional observations from a re-analysis of the deposited data

Results flagged for a closer look

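Of 152 groups of 4 libraries examined, 6 held a library far from the other 3, where chance alone would give 7.6 at 5%. In Cko-NS, library 4 was far above the rest for 4 cytosolic genes: Hspa1a at 241 RPKM (the others 94.9 to 111), Hsph1 at 34.1 RPKM (5.87 to 6.57), Hspb1 at 941 RPKM (462 to 469.5) and Dnaja1 at 55.6 RPKM (19.6 to 20.6). In Cko-ST, library 4 read 60.0 RPKM for Pdia3, where the others lay between 37.9 and 38.2 RPKM. Library 1 of Cko-ST read 8.76 RPKM for Atf6, where the others lay between 7.48 and 7.64 RPKM.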

How the results depend on the processing

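Over the 46 member results recomputed under 825 alternatives in all, 767 kept their direction and side of the threshold, 44 lost a call, 12 gained one and 2 changed direction. Those were Xbp1 in the Cko stroke comparison, not called in either case, at -0.09 without Cko-NS library 4 (-0.09 to 0.42 with 1 library left out) and -0.15 without the libraries male by label or RNA. The members called in the Cko stroke comparison numbered 13 in the report, 7 in a fit of these 2 groups alone, and 8 to 15 when 1 library was left out. In the WT stroke comparison they numbered 11, and 10 to 14 with 1 library left out. In the non-stroke genotype comparison the count was 0, and it was 1 without the libraries male by label or RNA and 0 to 1 with 1 library left out. In the stroke-hemisphere genotype comparison, the interaction and the beta-catenin experiment it was 0 throughout. The cause of these changes was not tested. With the replicate number as a block, 15 members were higher in WT after stroke, adding Hsp90aa1, Hsp90b1, Hspa8 and Pdia6, and 16 were called in Cko. The block left 0 called in every other comparison. The all-gene median of the Cko stroke comparison was -0.13, and -0.02 after median-of-ratios scaling, where 843 genes were higher and 627 lower in place of 634 and 857, and the members' median was 0.72 in place of 0.59. Depth limits the members near 1 RPKM, such as Trib3 and Chac1.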
